A study of Caenorhabditis elegans with 14 samples.

Results

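RNA of N2, the laboratory wild type of *Caenorhabditis elegans*, was compared between reproductive worms at 96 hr (T2) and old worms at 214 hr (T3). N2 and CB4856, a wild strain from Hawaii, were hybridized together on each array with 1 dye each. Here only the channel that holds N2 was used, which gave 4 channels at T2 and 5 at T3, 9 of the 28 channels measured over both strains and 3 ages. N2 carried Cy3 in replicates 1 to 3 of each age and Cy5 in T2 replicate 4 and in T3 replicates 4 and 5. The labels give these Cy5 arrays the replicate numbers of Cy3 arrays of the same age (1 for replicate 4 and 2 for replicate 5), and do not say whether they hold the same RNA.

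The worms of both ages were wild-type hermaphrodites grown at 24° on *E. coli* OP50 from bleached, age-synchronized eggs, and males were removed from the populations. From hour 41 both ages spent 30 hr on dishes with FUDR (fluorodeoxyuridine), an inhibitor of DNA synthesis that keeps eggs from hatching, and were then moved to dishes without it. The T2 worms were collected 23 hr after that transfer and the T3 worms at 214 hr of culture. The methods state that dishes were inspected by eye before harvest and that populations found to have reproduced were discarded. Whether the samples were free of live progeny was not tested. Age and the time since FUDR cannot be told apart. Each sample pooled the worms of several dishes. Neither the labels nor the methods state that the replicates of an age were separate cultures, so that the p-values measure the spread between these arrays, which may be technical.

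The body of an adult *C. elegans* consists of cells that no longer divide, and only its germline keeps dividing. A hermaphrodite makes a limited stock of sperm late in larval life and then switches its germline to oocytes for good. The adult intestine digests bacteria, stores fat, makes yolk, and expresses most detoxification and antibacterial genes. Aging worms are known for a thickened and wrinkled cuticle, loss of muscle structure, and a germline that shrinks and turns disordered.

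Each array carried 22490 oligonucleotide elements for worm genes, some with several for 1 gene. The median N2 spot intensity lay between 191 and 303 scanner units per channel, and the median of the local background between 163 and 172. In all, 45.8% to 56.2% of the elements at T2 and 50.3% to 63% at T3 exceeded their background by more than 2 SD. Levels below are log2 normalized intensities, on which about 6 is the background. Channels of the same age correlated across elements with a median r of 0.957 to 0.969 at T2. At T3 it was 0.934 to 0.956, except in T3 replicate 5, whose median r was 0.876. Among the 3 Cy3 channels of each age, which leave out T3 replicate 5, the spread was alike. The median SD was 0.21 at T2 and 0.22 at T3 (all elements). Over elements above background on all 9 arrays it was 0.35 and 0.37. Of 11 elements for genes of male neurons and male gonad, 8 exceeded background on no array. None of the 11 was above background on all arrays of an age. The summed intensity of the 11 lay between 762.1 and 800.2 at T2 and between 763.6 and 844.8 at T3. No sample known to hold males was measured, so that these elements could not show whether males were absent. All 14 germline marker elements, 24 of 28 intestine, 5 of 8 body wall muscle, and 14 of 25 neuron marker elements were above background on all arrays of an age. The strain check was limited, because *zeel-1*, which CB4856 lacks, was dim in N2, at 6.76 to 7.16 at T2 and 6.97 to 8.27 at T3.

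Between T2 and T3, 2995 of 22490 elements changed (13.3%, limma with a dye term, Benjamini-Hochberg adjusted p under 0.05). Of these, 1255 (5.58% of all elements) were higher at T3 and 1740 (7.74%) were lower. With Cy5 and Cy3 arrays of the same label number averaged, 1597 elements were called, 459 higher and 1138 lower. The 2995 called elements stand for 2791 gene names, 1175 with a higher and 1620 with a lower element, and 4 names with both. The 4 T2 and 5 T3 values did not overlap in 2730 of the called elements. Over all elements the values did not overlap in 3735 (16.6%). The decreases were larger than the increases. A change of at least 4-fold was seen for 251 elements that fell and for 87 that rose. Of the called elements, 344 were above background on no T2 array and 116 on no T3 array. For these the size of the change depends on the background, and the fold of any that is named is stated as a minimum, from the brighter age against the lowest level that counts as above background.

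The balance between the directions rested on the normalization. When the channels were scaled to their medians alone, 67.4% of the called elements were higher at T3 against 41.9% with quantile normalization, and the median change over all elements moved from 0.01 to -0.17 on the log2 scale. Of the 2995 called elements, 1930 were also called in the same direction under that scaling and 15 had the opposite sign.

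**Figure D1:**
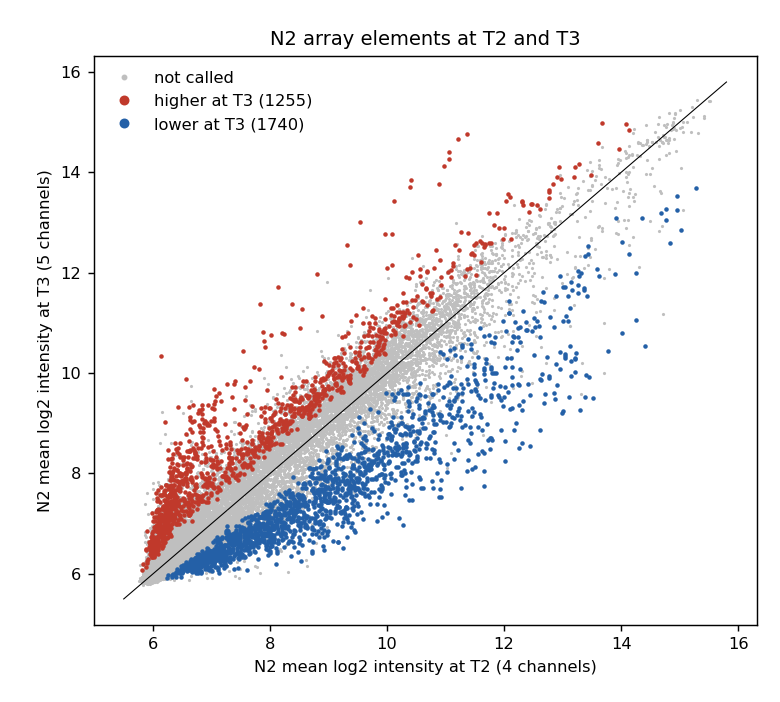
Mean log2 intensity of each of 22490 array elements in N2 at T2 (horizontal, 4 channels) and T3 (vertical, 5 channels), with called elements in red (1255 higher at T3) and blue (1740 lower) and the line of equal levels. The red points spread farthest above the line at T2 levels close to background and in a group of bright sperm genes, and the blue points spread widely below the line across bright elements.

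Genes of sperm rose with age in N2 more often than those of any other list examined. The major sperm proteins (MSPs) form the cytoskeleton with which nematode sperm crawl, and they also signal to oocytes. Of 18 MSP elements, 14 were called higher at T3 and none lower, with a median log2 change of 3.08 over the list against 0.01 over all elements. The MSP genes are near-identical copies, so that their probes cannot be read as separate genes. *msp-10* measured 10.83, 12.05, 10.73, and 11.86 in T2 replicates 1 to 4 and 14.97, 14.89, 14.12, 15.08, and 14.74 in T3 replicates 1 to 5. The change was 3.33 (standard error 0.32, adjusted p = 0.0011), or 10.1-fold. The 15 largest changes in each direction were chosen among called elements whose values did not overlap between the ages. Separation of the ages in these elements restates that choice. The other MSP genes among the 15 largest increases, *msp-56*, *msp-49*, *msp-38*, *msp-51*, *msp-78*, *msp-59*, *msp-142*, and *msp-76*, rose by 3.42, 3.39, 3.37, 3.27, 3.23, 3.15, 3.15, and 3.07 on the log2 scale.

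The rise was not limited to MSPs. Of 83 elements for other sperm genes, 34 were called higher and none lower, with a median log2 change of 0.83. *spch-3*, a gene for a small basic protein that packs sperm chromatin, measured 7.62, 8.57, 7.47, and 8.86 at T2 and 12.43, 12.18, 10.19, 12.34, and 11.41 at T3. T3 replicate 3 was the lowest of the old samples, and *spch-3* rose 11.3-fold (log2 change 3.50, standard error 0.51, adjusted p = 0.0050). Its relative *spch-2* rose by 3.44 (standard error 0.36, adjusted p = 0.0015), with 7.47 to 7.58 in the Cy3 replicates of T2 and 8.79 in the Cy5 replicate. *gsp-4*, a protein phosphatase needed for sperm development, measured 6.87, 6.58, 6.51, and 6.87 at T2 and 8.80, 9.06, 7.40, 8.64, and 8.41 at T3. It exceeded background on 2 of the 4 T2 arrays and on all T3 arrays, and rose by 1.73 (standard error 0.32, adjusted p = 0.012). Other sperm members with large increases were *msd-4*, which belongs to the MSP domain family, at 2.91, *ssp-11* at 2.84, *nspd-1* at 2.64, and *ssp-16* at 2.48. Also among the 15 largest increases were T23B3.5 at 3.32 and F58A6.9 at 3.26, which the files name only by their coding sequence. T23B3.5 exceeded background on 1 of the 4 T2 arrays, at 6.30 to 6.68, so that the size of its change depends on the background.

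The juvenile samples of the same strain put these levels in order. At T1 (40 hr, N2, 5 channels, before any FUDR) the mean level of *spch-3* was 12.60, against 8.13 at T2 and 11.71 at T3. For *msp-10* the means were 15.30, 11.37, and 14.76, and for *gsp-4* they were 10.29, 6.71, and 8.46. In each the T1 mean was the highest, T2 the lowest, and T3 lay between them. The summed intensity of the 18 MSP elements was 151700 to 445100 at T1, 12480 to 30740 at T2, and 102100 to 257600 at T3, so that T1 and T3 overlapped and T2 lay apart. For the 83 other sperm elements it was 61160 to 201800 at T1, 15530 to 32510 at T2, and 22790 to 87770 at T3. There T3 overlapped with both other ages, and its lowest sum was that of T3 replicate 3. In CB4856 on the same spots, the median change of the MSP elements was 1.51 and that of the other sperm elements 0.45. The difference between the strains passed the threshold for none of the 18 MSP elements. For *msp-10* the CB4856 change minus that of N2 was -1.86 (standard error 0.44, adjusted p = 0.27).

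**Figure D2:**
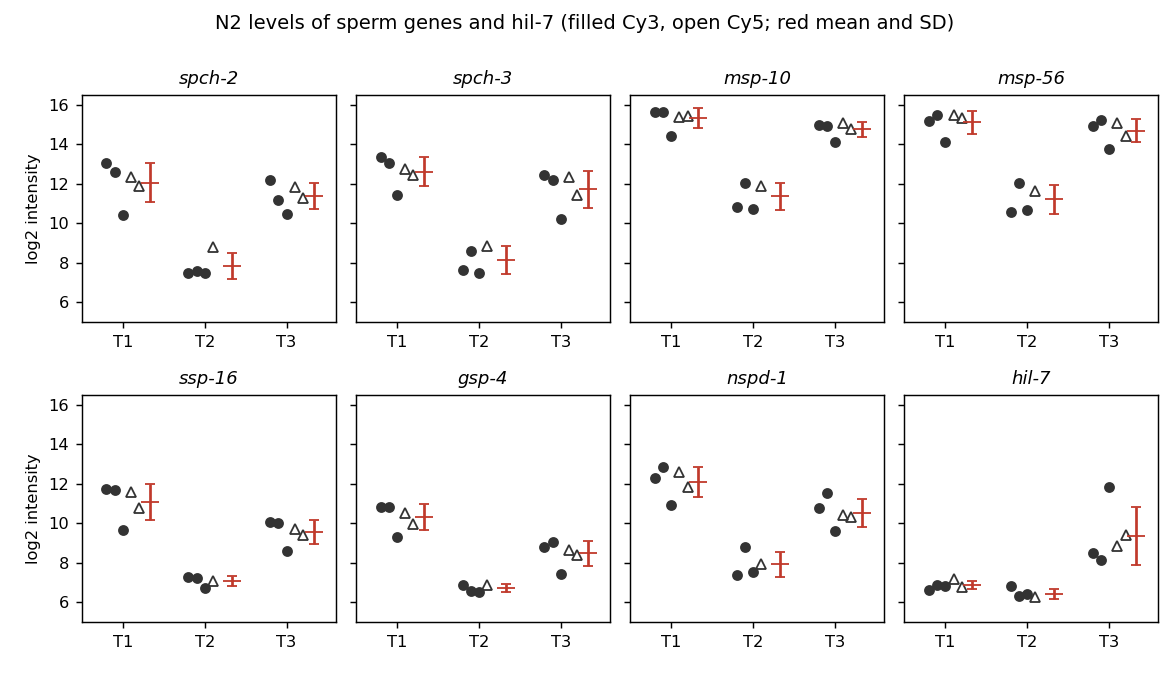
Log2 intensity of 7 sperm genes and of the linker histone gene *hil-7* in each N2 channel at T1, T2, and T3 (filled circles Cy3, open triangles Cy5, red mean and SD). The sperm genes are high at T1, low at T2, and high again at T3, whereas *hil-7* is near background at T1 and T2 and varies from 8.12 to 11.83 at T3.

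Genes of the germline outside sperm moved less. Of 43 elements for meiosis and recombination genes, 8 were higher at T3 and none lower (median 0.59). *htp-3*, a component of the axis along which meiotic chromosomes pair, measured 8.76, 8.68, 9.13, and 9.45 at T2 and 10.46, 10.29, 9.49, 10.18, and 9.71 at T3. The ages were separated by a narrow margin, and the change was 1.00 (standard error 0.25, adjusted p = 0.037). *rad-51*, the recombinase that repairs meiotic breaks, rose by 1.31 (adjusted p = 0.029) and the meiotic cohesin gene *rec-8* by 0.72 (adjusted p = 0.041). Among 26 germ granule elements 5 rose, *znfx-1* most (1.43, adjusted p = 0.021), while *glh-1* changed by 0.35 (adjusted p = 0.78) and *pgl-1* by 0.51 (adjusted p = 0.17). Cell cycle and DNA replication genes had 6 of 62 elements higher (9.68%, against 5.58% over all elements). Regulators of oocyte and early embryo RNA had 1 of 36 (2.78%), *spn-4*, at 0.99, a smaller share than over all elements. Eggshell genes had 2 of 15, *cpg-1* (0.91) and *egg-1* (1.12). No element of these 5 lists was lower. These lists respond to the scaling. Under median scaling 19 of the meiosis and 20 of the cell cycle elements were higher, and none lower.

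RNA interference factors that act in the germline were also among the increases. Of 42 elements for Argonautes and related genes 6 rose and 1 fell, and under median scaling 16 and 1. *ppw-2*, a germline Argonaute, rose by 1.68 (adjusted p = 0.015). The element that fell was *sid-2* (-1.31, adjusted p = 0.0019), a transporter through which the intestine takes up RNA. Of 12 nucleolar elements 3 rose and none fell.

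Among histone genes *hil-7*, a linker histone, was above background on no T2 array, at 6.80, 6.29, 6.40, and 6.24, and measured 8.47, 8.12, 11.83, 8.84, and 9.4 at T3. T3 replicate 3 was by far the highest, and the level was at least 4.11-fold higher at T3 (fitted change 2.94, standard error 0.72, adjusted p = 0.033). The call was lost without any 1 of the T2 arrays, T3 replicate 4, or T3 replicate 5. A second *hil-7* element behaved alike (2.84, at least 3.42-fold). *hil-2*, another linker histone, rose by 2.12 on its most changed element (adjusted p = 0.0089) and by 0.55 on its least changed (adjusted p = 0.19). Over 40 histone elements 8 rose and 2 fell, *his-8* (-1.13) and *his-62* (-0.92). Genes of larval molting moved with T3 replicate 3. The summed intensity of 18 molting marker elements was 1982 to 2284 at T2 and 2304, 2280, 5484, 2895, and 3783 in T3 replicates 1 to 5, against 29200 to 40520 at T1. The part of larvae in these results was not tested.

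Yolk protein genes were among the brightest elements at both ages. Vitellogenins are made in the adult intestine and carried to the oocytes. None of 11 vitellogenin elements was called in either direction, and their median change was -0.33. Under median scaling 1 of them was lower, with a list median of -0.62. *vit-2* measured 15.52, 15.47, 15.63, and 15.47 at T2 and 15.39, 15.09, 15.63, 15.39, and 15.63 at T3, with overlapping ages (change -0.10, standard error 0.13, adjusted p = 0.69). *vit-6* was lower by 0.41 (standard error 0.13, adjusted p = 0.083) and *vit-5* by 0.46 (standard error 0.21, adjusted p = 0.21). *vit-1* was uneven at T3, at 10.23, 8.58, and 8.13 in the Cy3 replicates and 13.12 and 13.04 in the Cy5 replicates, against 11.76 to 12.84 at T2 (change -2.09, standard error 0.69, adjusted p = 0.091). The value 15.63 is the highest that quantile normalization gives any channel, and *vit-2*, *vit-4*, and *vit-6* each reached it on at least 1 array, so that changes of these genes could not be measured above it.

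Cuticle collagens were frequent among the largest decreases, and *col-101* fell the most of the named elements. The cuticle is a layered coat of collagens that the epidermis secretes at each molt and that adults keep. Of 171 cuticle collagen elements 39 were lower at T3 and none higher. Only 71 of the 171 were above background on all arrays of an age, and the median over the list was -0.09. *col-101* measured 13.72, 13.16, 13.17, and 13.11 at T2 and 9.46, 9.87, 6.74, 10.06, and 10.18 at T3. T3 replicate 3 was the lowest, and the fall was 17.7-fold (log2 change -4.14, standard error 0.66, adjusted p = 0.0067). *col-19*, the collagen used as a marker of the adult cuticle, measured 12.77, 12.04, 12.16, and 12.05 at T2 and 9.12, 8.85, 7.5, 9.29, and 7.75 at T3. It fell 13.3-fold (-3.74, standard error 0.43, adjusted p = 0.0021). The collagens *col-45*, *col-159*, *col-124*, *col-119*, and *col-140*, were also among the 15 largest decreases, at -4.03, -3.85, -3.76, -3.66, and -3.62. The cuticle collagens are a large family with similar repeats, and cross-hybridization between members was not tested. *elt-3*, a transcription factor of the epidermis, fell by 1.15 (standard error 0.28, adjusted p = 0.033). The summed intensity of 13 epidermis marker elements, which include *col-19* and other collagens, was 7013 to 10470 at T2 and 2184 to 3917 at T3. Of these 13 elements only 2 were called lower, *col-19* and *elt-3*, and none higher. Their median change was 0.05, so that the sum does not stand for the epidermis markers as a group.

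Other secreted and matrix genes fell as well. The Hedgehog-related and molting genes had 14 of 96 elements lower and 1 higher. *grd-3*, a member of the groundhog family of Hedgehog-related proteins, measured 11.12, 12.23, 11.25, and 12.05 at T2 and 8.24, 7.58, 7.68, 8.36, and 6.94 at T3 (-3.92, standard error 0.37, adjusted p = 0.0010). *grd-5* fell by 3.34 on the log2 scale. Of 54 basement membrane elements 13 were lower and none higher, and under median scaling 5 and none. *let-2*, a type IV collagen on which tissues rest, fell by 2.22 (standard error 0.36, adjusted p = 0.0075) on 1 element and by 1.46 (adjusted p = 0.027) on another, and its dim elements were not called. *nid-1* (nidogen, -1.68), *cle-1* (type XVIII collagen, -1.62), and *test-1* (testican, -1.71) fell too. Transthyretin-related proteins, a nematode family of small secreted proteins, had 16 of 49 elements lower and none higher (median -0.68), against 8 and none under median scaling, led by *ttr-44* (-3.18, standard error 0.24, adjusted p = 0.00052).

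**Figure D3:**
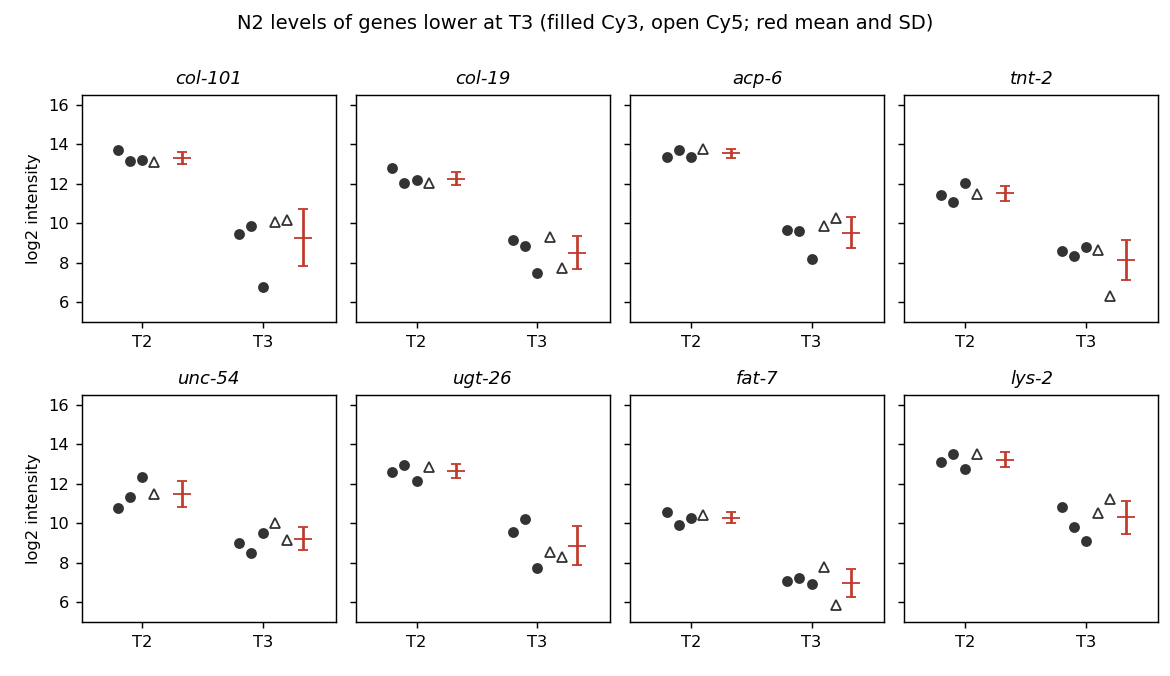
Log2 intensity of 8 genes lower at T3 in each N2 channel at T2 and T3 (filled circles Cy3, open triangles Cy5, red mean and SD). The genes were chosen from called decreases, so the gap between the ages restates that choice. T3 replicate 3 lies lowest of its age for *col-101*, *col-19*, *acp-6*, *ugt-26*, and *lys-2*.

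The contractile apparatus of muscle was represented by 97 elements for contraction and attachment. In these whole-worm samples fewer cells of a type and less RNA per cell cannot be told apart. Of these elements 27 were lower and 1 higher, with a median change of -0.38, and under median scaling 18 were lower and none higher. *unc-54*, the main myosin heavy chain of the body wall, measured 10.77, 11.34, 12.33, and 11.48 at T2 and 9.0, 8.47, 9.48, 10.01, and 9.13 at T3. The ages did not overlap, and *unc-54* fell 5.0-fold (-2.31, standard error 0.37, adjusted p = 0.0071). *tnt-2*, a troponin T, measured 11.42, 11.09, 12.01, and 11.49 at T2 and 8.57, 8.33, 8.78, 8.65, and 6.31 at T3, where replicate 5 was below background (-3.28, standard error 0.48, adjusted p = 0.0049). *clik-1*, a calponin-like gene, fell by 3.11 (standard error 0.21, adjusted p = 0.00035). The troponin I gene *unc-27* changed by -2.72 and the tropomyosin gene *lev-11* by -2.32 on its most changed element. Not every muscle gene fell. *myo-3*, a minor myosin heavy chain of the body wall, measured 7.92, 7.02, 8.38, and 8.65 at T2 and 7.63, 7.15, 9.64, 8.16, and 7.91 at T3 (change 0.06, standard error 0.54, adjusted p = 0.96). The summed intensity of the 8 body wall muscle markers went from between 8720 and 17260 at T2 to between 2443 and 4779 at T3. Of these 8 elements 4 were called lower and none higher, so that the sum does not stand for each of them.

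Of 100 neuropeptide elements 32 fell and 1 rose (median -0.40), and under median scaling 16 and 1. *nlp-40*, a peptide that the intestine releases to time defecation, measured 13.05, 13.39, 12.88, and 13.17 at T2 and 11.13, 11.61, 10.96, 11.13, and 11.68 at T3 (-1.84, standard error 0.19, adjusted p = 0.0015). *nlp-20* fell by 1.82 on the log2 scale, and *flp-14*, an FMRFamide-like peptide gene of neurons, by 1.78 (standard error 0.34, adjusted p = 0.013). *pdf-1*, a pigment-dispersing factor peptide that promotes roaming, fell by 1.46 (adjusted p = 0.0070) on 1 of its 2 elements. The peptide gene that rose was *nlp-34*, with 9.81, 10.71, 9.24, and 10.25 at T2 and 12.10, 11.98, 11.88, 12.62, and 11.90 at T3 (2.05, standard error 0.29, adjusted p = 0.0045). It is also counted among the epidermal antimicrobial peptides. Of 109 elements for synaptic transmission 13 fell (11.9%, against 7.74% over all elements) and 1 rose. Under median scaling 3 fell and 1 rose. *tbh-1*, which makes octopamine, fell by 1.86 on the log2 scale, and *unc-25*, which makes GABA, by 1.43 on its most changed element. Of 25 neuron marker elements 6 were lower and none higher, and under median scaling 0 were lower and 1 higher. Their summed intensity overlapped between the ages, at 13000 to 19000 at T2 and 13640 to 21770 at T3.

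In each family of detoxification genes examined more elements were lower than higher at T3. UDP-glucuronosyltransferases attach sugars to foreign and spent molecules so that they can be excreted. Of 78 elements 35 were lower and none higher, with a median of -0.54. *ugt-26* measured 12.59, 12.94, 12.13, and 12.83 at T2 and 9.54, 10.20, 7.75, 8.54, and 8.28 at T3. It fell 13.1-fold (-3.71, standard error 0.49, adjusted p = 0.0035), and *ugt-25*, *ugt-31*, and *ugt-6* fell by 2.77, 2.56, and 2.47 on the log2 scale. Of 56 glutathione S-transferase elements 18 were lower and none higher, and under median scaling 10 and none. *gst-4*, a reporter of the oxidative stress response, measured 9.90, 10.25, 8.30, and 9.48 at T2 and 7.33, 7.59, 6.48, 7.05, and 7.46 at T3 (-2.31, standard error 0.42, adjusted p = 0.012). *gst-24* fell by 2.80 on the log2 scale. Cytochromes P450 had 15 of 88 elements lower and 2 higher, *cyp-14A5* lowest at -2.41. ABC transporters had 12 of 53 lower and 2 higher, and *pgp-8* fell by 2.22 on the log2 scale. Of 10 elements for metallothionein and cadmium-responsive genes 5 were lower, among them the intestinal metallothionein *mtl-2* (-1.09, adjusted p = 0.038).

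Stress response genes did not move one way. Of 12 small heat shock protein elements 2 fell, *hsp-17* (-1.67, adjusted p = 0.0026) and *hsp-43* (-1.36), and 1 rose, *hsp-12.6* (at least 1.27-fold, adjusted p = 0.022), which was above background on no T2 array. *hsp-16.41*, a chaperone induced by heat, measured 11.28, 12.23, 10.07, and 11.13 at T2 and 11.89, 12.54, 14.47, 12.69, and 13.43 at T3. Its ages overlapped and T3 replicate 3 was the highest (change 1.82, standard error 0.61, adjusted p = 0.094). *hsp-16.2* changed by 1.22 (standard error 0.66, adjusted p = 0.30). The large chaperones had 7 of 38 elements higher and none lower, and under median scaling 12 and none. *hsp-1*, the constitutive cytosolic Hsp70, measured 13.18, 13.38, 14.58, and 13.56 at T2 and 14.72, 14.81, 15.22, 15.01, and 15.15 at T3 (1.30, standard error 0.29, adjusted p = 0.024). *crt-1*, calreticulin of the endoplasmic reticulum, rose by 1.35 (adjusted p = 0.015).

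Of 26 antioxidant elements 5 rose and 4 fell, and under median scaling 6 and 2. The superoxide dismutases went different ways. *sod-1*, the main cytosolic form, was lower by 0.77 (standard error 0.21, adjusted p = 0.0496), with overlapping ages at 11.21 to 11.59 at T2 and 10.11 to 11.34 at T3, and it was not called in 17 of the alternatives run. *sod-4*, the extracellular form, was higher by 0.85 (standard error 0.21, adjusted p = 0.035), and *sod-5* was at least 1.11-fold higher (adjusted p = 0.0033), with no T2 array above background. The mitochondrial forms did not pass the threshold, *sod-2* at 0.54 (standard error 0.24, adjusted p = 0.20) and *sod-3* at -0.24 (standard error 0.13, adjusted p = 0.30). Genes of insulin signaling and longevity had 7 of 88 elements higher (7.95%) and 9 lower (10.2%), against 5.58% and 7.74% over all elements. Under median scaling 9 were higher and 2 lower. The PI3 kinase gene *age-1* rose by 1.31, while *daf-36*, an enzyme of steroid hormone synthesis, fell by 1.34. The dod and pud genes, which are named for their response to the insulin-regulated factor DAF-16 or for their abundance in mutants of the insulin receptor gene *daf-2*, had 6 of 16 elements lower and none higher, with *dod-23* at -2.97 (standard error 0.11, adjusted p = 7.8e-05) and *pud-4* at -2.88.

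C-type lectins bind sugars, and many are induced in the intestine by bacteria. Of 243 elements 37 were lower and 4 higher (median -0.05), and 138 were above background on no array. *clec-52* measured 12.45, 12.44, 12.02, and 12.87 at T2 and 8.71, 9.34, 8.26, 8.09, and 8.37 at T3, a fall of 14.6-fold (-3.87, standard error 0.28, adjusted p = 0.00045). Among lysozymes, saposin-like proteins, and related factors 11 of 49 elements fell and 5 rose. Of 41 epidermal antimicrobial peptide elements 4 fell (9.76%, against 7.74% over all elements) and 1 rose. The lysozyme *lys-2* measured 13.09, 13.50, 12.76, and 13.51 at T2 and 10.83, 9.81, 9.10, 10.51, and 11.21 at T3 (-3.03, standard error 0.36, adjusted p = 0.0024), and *spp-17* fell by 3.25 on the log2 scale. *cnc-8*, of the caenacin peptides of the epidermis, fell by 3.04 (standard error 0.44, adjusted p = 0.0047).

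Large increases were seen for *spp-9* and invertebrate-type lysozymes. *spp-9*, a saposin-like gene, was above background on no T2 array, at 5.97, 6.38, 6.23, and 5.97. At T3 it measured 13.43, 13.56, 7.85, 8.45, and 8.42, so that replicates 1 and 2 stood far above the other three. It was at least 7.62-fold higher at T3 (fitted change 4.51, standard error 1.22, adjusted p = 0.048), the largest fitted increase of all named elements, and it was not called in 14 of the alternatives run, among them those that left out any 1 array other than T3 replicate 3. *ilys-3*, an invertebrate-type lysozyme, measured 6.62, 6.64, 7.04, and 6.92 at T2 and 9.13, 10.25, 10.07, 8.97, and 7.82 at T3 (2.57, standard error 0.40, adjusted p = 0.0063), and its other element rose by 2.25. *ilys-2*, above background on no T2 array, was at least 2.58-fold higher (adjusted p = 0.0086).

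Of 16 elements for fatty acid desaturases and elongases 8 were lower and 1 higher (median -0.96), and under median scaling 3 and 1. *fat-7*, a stearoyl-CoA desaturase of the intestine, measured 10.56, 9.89, 10.26, and 10.42 at T2 and 7.08, 7.21, 6.94, 7.79, and 5.88 at T3, where replicate 5 was at background. It fell 9.8-fold (-3.29, standard error 0.36, adjusted p = 0.0019). Its near relative *fat-6* fell 4.5-fold (-2.18, standard error 0.27, adjusted p = 0.0027), whereas *fat-5*, the palmitoyl-CoA desaturase, changed by -1.62 without passing the threshold (standard error 0.45, adjusted p = 0.052). The polyunsaturated fatty acid desaturases *fat-1*, *fat-2*, *fat-3*, and *fat-4* fell by 1.30, 1.54, 0.87, and 1.04 on the log2 scale. The one that rose was *elo-4* (1.09, adjusted p = 0.0073). Of 33 elements for lipid-binding proteins and lipases 10 were lower and none higher, against 5 and none under median scaling, and the lysosomal lipase gene *lipl-5* fell on each of its 3 elements (-2.95, -2.19, and -2.17).

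Acyl-CoA and beta-oxidation genes had 25 of 86 elements lower and 9 higher, both larger shares than over all elements, and under median scaling 13 and 8. *acs-1*, an acyl-CoA synthetase that activates branched-chain fatty acids, measured 10.20, 10.81, 10.39, and 11.27 at T2 and 8.30, 7.84, 7.97, 8.75, and 8.70 at T3 (-2.47, standard error 0.15, adjusted p = 0.00030). *acox-1.4*, a peroxisomal acyl-CoA oxidase, fell by 2.43 on its most changed element. In carbohydrate metabolism 8 of 70 elements were lower (11.4%, against 7.74% over all elements) and 1 higher. The gluconeogenic enzyme *pck-1*, phosphoenolpyruvate carboxykinase, fell by 2.07 (standard error 0.33, adjusted p = 0.0066). Under median scaling this list had 2 lower and 3 higher elements. In the methionine cycle and phosphatidylcholine synthesis 5 of 34 elements were lower and 4 higher. *pmt-2*, a methyltransferase of phosphocholine synthesis, fell by 2.11 (adjusted p = 0.0070) and *cth-1*, a cystathionine gamma-lyase, by 1.98 (adjusted p = 0.0074). *sams-5*, an S-adenosylmethionine synthetase, measured 6.60, 6.75, 6.51, and 6.67 at T2 and 9.25, 9.59, 8.40, 9.08, and 8.97 at T3, and rose 5.4-fold (2.43, standard error 0.23, adjusted p = 0.00099).

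Proteases of the intestinal lumen and lysosome were among the lists with the lowest medians. Of 32 elements 11 were lower and none higher (median -1.03). *asp-4*, a cathepsin D-like aspartyl protease, measured 12.90, 13.21, 12.86, and 13.28 at T2 and 10.61, 10.73, 11.27, 11.24, and 11.81 at T3 (-2.01, standard error 0.19, adjusted p = 0.0010). Of 21 subunits of the V-ATPase, the proton pump of lysosomes and of the gut surface, 5 were lower and none higher, against 2 and 1 under median scaling, led by *vha-6* of the intestine (-1.99, standard error 0.27, adjusted p = 0.0038). *acp-6*, an acid phosphatase gene, had the second largest decrease, with 13.34, 13.71, 13.32, and 13.73 at T2 and 9.67, 9.59, 8.18, 9.83, and 10.26 at T3 (-4.12, standard error 0.33, adjusted p = 0.00063). *elt-2*, the transcription factor that maintains the intestine, was lower by 1.07 (standard error 0.26, adjusted p = 0.032). Of the 28 intestine marker elements 8 were lower and none higher, and their summed intensity went from 41890 to 57330 at T2 to 15090 to 41400 at T3.

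Cytosolic ribosomal proteins had 1 of 85 elements higher, *rpl-3* (0.48), and none lower, with a median of 0.05. Mitochondrial ribosomal proteins had 12 of 68 higher and none lower (median 0.28), *mrps-11* most, with 10.09, 10.30, 10.19, and 9.93 at T2 and 10.81, 11.41, 11.18, 10.74, and 10.92 at T3 (0.93, standard error 0.13, adjusted p = 0.0046). Proteasome subunits had 3 of 35 higher (8.57%) and none lower. Autophagy genes had 2 of 34 higher (5.88%, close to the 5.58% over all elements) and none lower. Under median scaling 20 mitochondrial ribosomal, 7 proteasome, and 7 autophagy elements were higher, and none lower. Mitochondrial respiratory chain genes had 2 of 61 higher and 3 lower, both smaller shares than over all elements. The F-box genes, adaptors of ubiquitin ligases, had 15 of 385 elements higher and 28 lower, neither a larger share than over all elements. Nuclear hormone receptors had 4 of 319 higher and 22 lower, *nhr-244* most (-2.14), and neither was a larger share than over all elements.

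**Figure D4:**
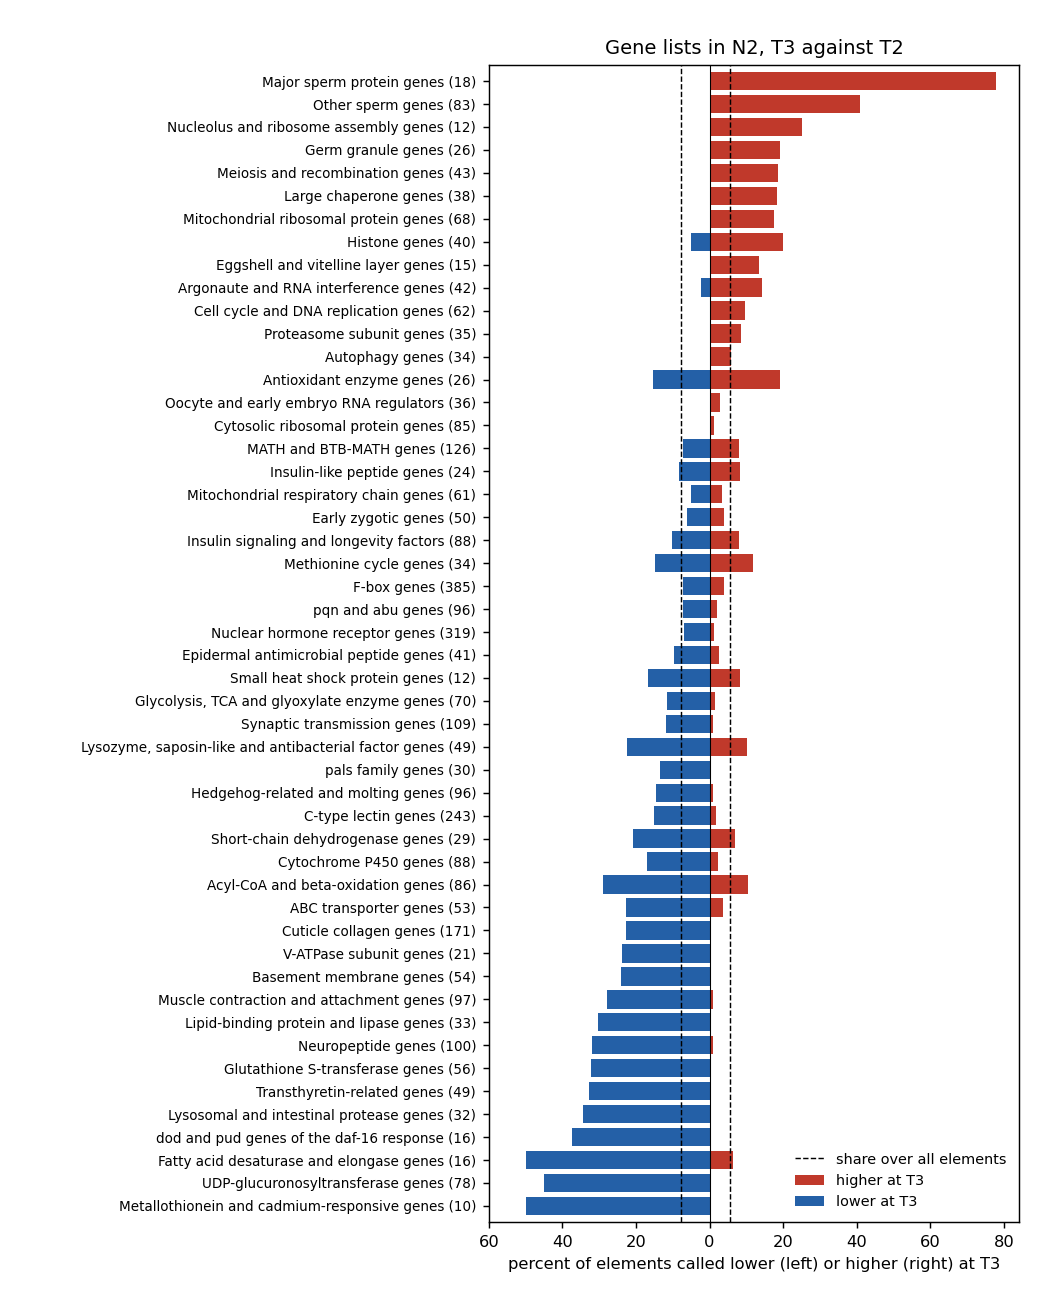
Percent of elements called higher (red, right) or lower (blue, left) at T3 in N2 for gene lists with at least 10 elements (number of elements in brackets). Lists without a called element and cell type markers were left out. Dashed lines mark the shares over all elements, 5.58% higher and 7.74% lower, and the sperm lists reach farthest to the right and the metallothionein, UDP-glucuronosyltransferase, and desaturase lists farthest to the left.

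The remaining elements among the 15 largest decreases were *catp-3*, of the cation ATPases (-3.72, standard error 0.63, adjusted p = 0.0087), and F54D5.4, ZK1320.3, and D1086.3 at -3.89, -3.70, and -3.61. *catp-3* measured 12.29, 12.41, 11.13, and 12.27 at T2 and 8.88, 9.11, 7.78, 9.13, and 6.29 at T3. ZK1320.3 measured 12.84 to 13.33 at T2 and 9.72, 9.48, 9.45, 10.67, and 6.74 at T3. In both T3 replicate 5 was the lowest. Outside the lists and the largest increases, 2 genes were chosen after their values were seen. *icmt-1*, a carboxyl methyltransferase of prenylated proteins, measured 6.45, 6.70, 6.58, and 6.72 at T2 and 9.63, 9.71, 9.27, 9.16, and 8.89 at T3 (2.76, standard error 0.16, adjusted p = 0.00030). *lea-1*, a late embryogenesis abundant protein gene linked to survival of drying, measured 10.05, 8.33, 10.24, and 8.84 at T2 and 11.98, 12.72, 12.53, 12.07, and 11.49 at T3 (2.89, standard error 0.40, adjusted p = 0.0041).

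The header dates of the arrays place them in 4 sessions, of which 3 held both ages. Of the elements called without a session's arrays, 99.3%, 85.3%, and 99.8% changed in the same direction within that session, where the number called without it was 302, 3785, and 437. For *spch-3* the T3 minus T2 difference within these sessions was 3.58, 3.33, and 3.68, and for *col-101* it was -3.65, -4.71, and -3.20. Both are among the largest changes, and other named elements were less even. The difference was 7.46, 1.90, and 4.62 for *spp-9* and 0.93, 0.11, and 1.51 for *cpg-1*. For *mtl-2* it was -1.28, -0.22, and -1.39. With the session as a block 1818 elements were called, 617 higher and 1201 lower. No T2 array other than replicate 4 carried N2 in Cy5, and without it 1254 elements were called, the fewest of any array left out.

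The change with age was also compared with that of CB4856, which shares each spot with N2. In the within-array log2 ratio, the T3 against T2 change differed between the strains for 28 of 22490 elements (0.124%, limma, adjusted p under 0.05), 15 in which the CB4856 change lay above that of N2 and 13 in which it lay below. Of these 28, 24 were also called for age in N2, against 13.3% of all elements. Both tests use the same N2 values, so that this overlap is not a separate result. The probe sequences derive from N2, and for 11 of the 28 elements CB4856 was above background on no T2 or T3 array, so that a change there could not be seen.

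The largest difference was that of T20D4.7. In N2 it measured 9.90, 10.45, 9.65, and 10.03 at T2 and 8.31, 8.16, 9.19, 8.07, and 8.09 at T3, a fall (-1.60, standard error 0.26, adjusted p = 0.0072). In CB4856, above background on 1 of 4 T2 arrays and on all T3 arrays, it changed by 1.1, and the difference of the changes was 2.70 (standard error 0.25, adjusted p = 0.0078). *pals-24* and *pals-23* belong to a family with a role in the response to viruses and microsporidia. In N2, 4 of the 30 elements of this family, from 2 genes, were called lower and none higher. The median change over the family was 0.32. *pals-24* measured 9.74, 9.44, 8.99, and 8.67 at T2 and 7.43, 7.76, 6.84, 7.09, and 6.93 at T3 in N2 (-1.93, standard error 0.23, adjusted p = 0.0023), and *pals-23* fell by 2.02 and 1.90 on the log2 scale on 2 elements. CB4856 was above background for these 3 elements on no T2 or T3 array, and the differences of 1.65, 1.64, and 1.64 rest on that. *pud-4* fell by 2.88 on the log2 scale in N2, and the fitted change in CB4856 was -1.43 (difference 1.45, standard error 0.14, adjusted p = 0.0078). Only 1 of the 5 T3 arrays had *pud-4* above background in CB4856, so that the size of its change there, and of the difference, was set by the background.

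In the other direction *ssp-31*, a sperm gene, rose by 1.21 in N2 and changed by -0.93 in CB4856 on 1 element (difference -2.14, standard error 0.21, adjusted p = 0.0078). Its other element, above background on no T2 array, was at least 1.66-fold higher in N2 (fitted change 1.26) and changed by 0.87 in CB4856 (difference -0.39, adjusted p = 0.91), so that the elements of this gene disagree. *sams-5* rose by 2.43 in N2 and changed by 0.68 in CB4856 (difference -1.75, standard error 0.22, adjusted p = 0.025). C07G1.7 was at least 1.72-fold higher at T3 in N2, where no T2 array was above background, and CB4856 was above background on none (difference -1.40, adjusted p = 0.0078). F14H12.6 and C36C5.15 changed by -0.10 and -0.11 in N2, without passing the threshold, and by -1.57 and -1.58 in CB4856.

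**Figure D5:**
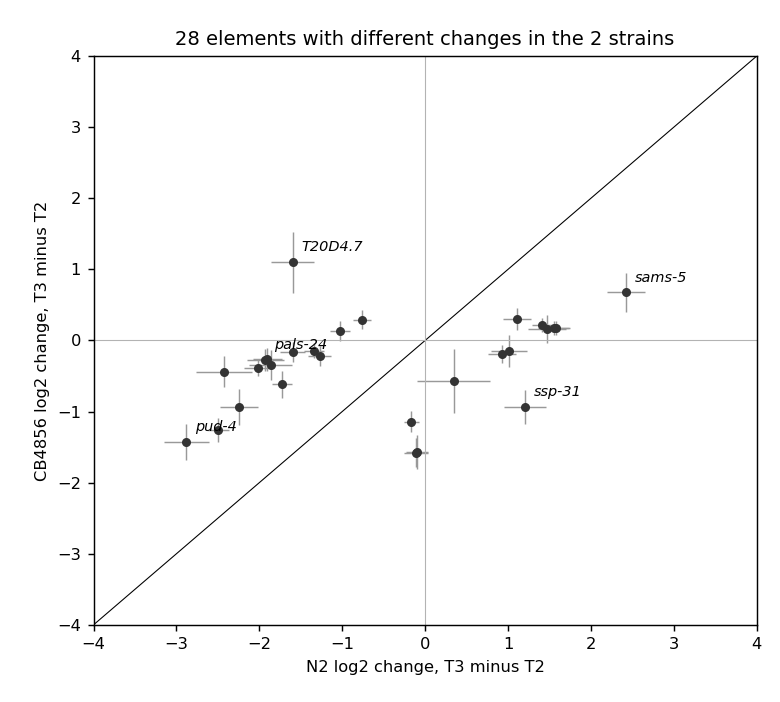
Log2 change from T2 to T3 in N2 (horizontal) and in CB4856 (vertical) for the 28 elements whose changes differed between the strains, with standard errors and the line of equal change. In 17 of them the CB4856 change lies within 0.5 of 0, and T20D4.7 and *ssp-31* lie in opposite corners.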

How the data were processed

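Each array was a 2-colour hybridization of N2 and CB4856. The authors deposited the scanner output, spot mean and local background intensity per channel, with Cy3 in channel 1 and Cy5 in channel 2. The scanner software was ScanArray Express, and no deposited intensity was normalized. The table of deposited log ratios was not used, because it does not hold single channels. Background was corrected by normexp (offset 50), and dye bias by loess within arrays with the 742 control or empty spots at weight 0. The 28 channels were then quantile normalized in limma 3.58.1 under R 4.3.3. Quantile normalization gives every channel the same distribution, so levels are relative to all other transcripts and not per worm.

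Age was tested on the 9 N2 channels with lmFit and eBayes, with dye as a covariate and Benjamini-Hochberg adjustment over 22490 elements (adjusted p under 0.05). An element was above background where its mean exceeded the local background by 2 background SD. The strain difference was tested on within-array log2 ratios with age and dye. The scripts were tested on simulated data. Elements were named by platform annotation (17358), by coding sequence name (4055), or only by the array's name (1077, counted and not named). Coordinates and sequences were not used here. The number of arrays limits the precision.

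Genes named were the 15 largest called changes in each direction with values that did not overlap and that were above background on every array of the higher age, up to 4 called members of each gene list, genes that define a list, and the largest strain differences. The members, gene lists, and tests were chosen with earlier results of these data known. Alternatives changed the background, scaling, dye and session terms, filters, thresholds, and arrays left out.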

Additional observations from a re-analysis of the deposited data

Results flagged for a closer look

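Values far from the other replicates of their age were found for 29 of 474 groups of values of named elements (6.12%), where chance gives about 1 in 20. T3 replicate 3 held 7 of them and T2 replicate 1 held 6. T3 replicate 3 was low for *msp-38* (12.71), *msp-51* (13.93), *col-101* (6.74), and F54D5.4 (8.54), and high for *nid-1* (8.88), *ins-23* (7.39), and T20D4.7 (9.19). T2 replicate 1 was high for *col-101* (13.72), *col-19* (12.77), and ZK1320.3 (13.33), and low for *bath-11* (6.07), *unc-15* (9.296), and *btb-14* (8.49). T2 replicate 3 was low for *catp-3* (11.13), D1086.3 (10.43), *nlp-20* (9.37), and *cpz-2* (10.52), and high for C36C5.15 (6.47). T3 replicate 2 was high for *ife-1* (13.71), *his-8* (11.23), *cle-1* (9.20), and *mrpl-46* (8.95). T2 replicate 2 was low for *cye-1* (6.88) and high for *test-1* (10.99) and *nhr-259* (7.83). Of the remaining values, *spch-2* was high in T2 replicate 4 (8.79), *end-3* was high in T3 replicate 1 (6.53), *tnt-2* was low in T3 replicate 5 (6.31), and *sod-3* was low in T3 replicate 4 (6.15).

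The change with age differed between CB4856 and N2 by limma for the following named elements, given as the CB4856 change minus that of N2 on the log2 scale. It was above that of N2 for T20D4.7 (2.70), *pals-24* (1.65), *pals-23* (1.64 on each of 2 elements), *btb-14* (1.52), *pud-4* (1.45), and *sdz-6* (1.44). It was below that of N2 for *ssp-31* (-2.14), *sams-5* (-1.75), F14H12.6 (-1.47), C36C5.15 (-1.47), C07G1.7 (-1.40), and *sdz-35* (-1.12).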

How the results depend on the processing

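The 2995 calls (1255 higher, 1740 lower) moved by over 1.5 times in these settings, each given as total, higher, and lower. They were 1078, 296, and 782 at an adjusted p under 0.01, 1515, 486, and 1029 with a 2-fold minimum, and 47, 3, and 44 at an unadjusted p under 1e-06. They were 885, 234, and 651 with Cy3 channels alone, 1597, 459, and 1138 with dye exchanges averaged, 760, 195, and 565 with spots of flag code 3 alone (fewer elements tested), and 1818, 617, and 1201 with the session as a block. All 28 channels in one model gave 4156 calls, 2003 higher, and median scaling gave 3045 calls, 2051 higher and 994 lower. Leaving out 1 array gave 1254 (without T2 replicate 4) to 3417 (without T3 replicate 3) calls, 389 to 1625 higher and 865 to 1792 lower. It gave 1901 without T2 replicate 2 and 1952 without T3 replicate 1. The 28 strain differences became 88 with all channels in one model, 3 with Aquantile, 9 without background subtraction, and 5 (without T2 replicate 4) to 36 (without T2 replicate 2) with 1 array left out. Apart from where given, the causes were not tested.

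Whether the replicate numbers pair the samples was not settled. Deviations from the fit with age and dye correlated with r between 0.02 and 0.33 for same-numbered T2 and T3 arrays. For differently numbered arrays r lay between -0.74 and 0.28. The fit ties these deviations to each other, so that the r values cannot decide the question. The replicate block gave 3037 calls and 34 strain differences.

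Of 237 named elements 118 lost their call in at least 1 setting. Over their alternatives 5033 values kept direction and side of the threshold, 780 lost and 18 gained the call, and 4 reversed, none of them called. The reversed values were 0.014 for C36C5.15 with outliers removed or without T2 replicate 3, and -0.23 and -0.47 for *myo-3* without T2 replicate 2 and without T3 replicate 3. With 1 array left out, C36C5.15 ranged from -0.20 to 0.014 and *myo-3* from -0.47 to 0.37. Dim elements limit the size of many changes, since 6219 elements were above background on no array.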
